A study of Papio anubis with 12 samples.

Results

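The enzymes and carriers by which mitochondria burn fatty acids and ketone bodies were examined in the cerebral cortex of baboon neonates fed formulas with different amounts of docosahexaenoic acid (DHA) and arachidonic acid (ARA). The module was a list of 33 genes given by function. A gene was read from probe sets that the platform annotation pairs with its symbol and with no other, and a gene with more than 1 such probe set was represented by the one with the highest mean over all 12 arrays, whatever their formula. In this way 31 of the 33 genes were measured, among 19775 genes that the array measured under the same rule, by 58 of the 54613 probe sets tested. Of the measured genes, 14 had 1 probe set and 17 had several. CPT1B, whose probe sets carry several symbols, and ACAD11 had no probe set that met the rule.

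The study asked how dietary long chain polyunsaturated fatty acids alter gene expression in the growing primate brain. RNA came from the precentral gyrus (motor cortex) of 12 Papio anubis neonates, and each animal had its own Affymetrix HG-U133 Plus 2.0 array, which is designed on human transcripts. The 3 formulas were given to 4 animals each for 12 weeks after birth at about 182 days of gestation. Formula C, the control, had neither DHA nor ARA, formula L had 0.33% DHA with 0.67% ARA, and formula L3 had 1.00% DHA with the same 0.67% ARA. Necropsy was at 83 to 87 days of age. Group C had 2 males, group L had 1 and group L3 had 0, so sex and formula were partly confounded. Each measurement is a mixture of all cell types of the gyrus, and in such tissue fewer cells of a type and less RNA per cell cannot be told apart.

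Long chain fatty acids enter the mitochondrion as carnitine esters. Inside it, repeated rounds of dehydrogenation, hydration, a second dehydrogenation and thiolysis shorten the chain and release acetyl-CoA, and the electrons of the first step pass through electron transfer flavoprotein to the respiratory chain. Ketone bodies, made in the liver from the same acetyl-CoA, cross into the brain and are a major fuel of the suckling cortex, whereas fatty acid oxidation in brain is attributed mainly to astrocytes.

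The brain identity of the samples was seen in the markers. SYT1, a synaptic vesicle protein, had a signal of 11768.5 to 23689.2 over the 12 arrays. The summed signal of 7 astrocyte markers ranged from 21477.8 to 34081.7 in C, from 22538.7 to 33254.8 in L and from 22701.6 to 38843.1 in L3. AQP4, the astrocyte water channel, was higher in L3/C by 0.63 on the log2 scale (exact permutation p = 0.0571), and C1QB, a complement gene of microglia, was higher in L/C by 2.00 (exact permutation p = 0.0286), each with an unadjusted limma p under 0.05 and an adjusted one above it. Of 6 genes of liver and striated muscle, tissues that use the same pathway, the summed signal reached 5098.2 under C, 4868.0 under L and 14732.0 under L3, and ALB, the plasma protein albumin, ran from 5.9 to 13179.8 over the arrays. At the same unadjusted threshold, CKM, muscle creatine kinase, was the 1 of those 6 genes called in L/C, where it was higher by 1.32. Of 2 erythroid markers HBB, a globin, was higher in L3/C by 0.58 and in L3/L by 0.73, and of 6 microglial markers AIF1 was lower in L3/L at −1.41. All 6 microglial markers were higher in L/C (median 0.53), and in L3/L 5 were lower and 1 higher (median −0.54). All 5 measured oligodendrocyte markers were lower in L3/C (median −0.25), and 6 of 7 astrocyte markers were higher in L3/L (median 0.34). Of all probe sets, 49.1% were higher in L/C, 49.9% in L3/C and 50.5% in L3/L. Over all probe sets, 2.42% had an unadjusted limma p under 0.05 in L/C, 4.26% in L3/C and 5.4% in L3/L. By average log2 deviation from each gene's mean over the arrays, L3 replicate 2 was highest of the 12 for the liver and muscle genes, at 1.18. It was also highest for the erythroid markers, at 0.89, with the other L3 arrays at −0.02 to 0.23. The part of these markers in the results on the module was not tested.

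L replicate 1 was the lowest array for the module and for several lists of related genes. Each gene's log2 value was set against its mean over the 12 arrays and the 31 deviations were averaged per array. This average was −0.78 in L replicate 1, and the other 11 arrays lay between −0.20 and 0.39. L replicate 1 gave the lowest value of all 12 arrays for 10 of the 31 genes, while 14.2% of all probe sets had their lowest value there and 16.2% their highest. The low position was not particular to the module. For related lists described below, the same average was also lowest there in ketone synthesis and transport (−0.56), branched-chain catabolism (−0.45) and mitochondrial content (−0.26). Acyl-CoA side enzymes (−0.35) and regulators (−0.34) were low there too, each with another array lower. Astrocyte markers were also lowest in L replicate 1, at −0.43, and the next lowest array was C replicate 4 at −0.18. Oligodendrocyte (−0.41), erythroid (−0.41) and endothelial (−0.38) markers were low there, each with another array lower. Microglial markers stood at −0.10, neuronal markers at 0.04 and the liver and muscle genes at 0.83. In L replicate 1 the log2 ratio of 3′ to 5′ signal for ACTB, which grows as RNA is degraded, was 3.45. That ratio was also high in C replicate 1 (3.59) and highest in L3 replicate 1 (6.18), where the module averaged −0.07 and −0.16. Within each formula the ratio was highest in replicate 1 and lowest in replicate 4, at −0.03 in C, −0.15 in L and 0.17 in L3. No difference between formulas was detected in the module's average or in the ACTB ratio, with exact two-sided permutation p-values for the average of 0.857 (L/C), 0.914 (L3/C) and 0.8 (L3/L) and for the ratio of 0.457, 0.6 and 0.371. The smallest p that 4 arrays against 4 allow is 0.0286. The module's average had an SD of 0.50 in L, against 0.19 in C and 0.14 in L3. The p-values therefore do not show that the formulas were alike. The part of RNA quality or of cell composition in the low values of L replicate 1 was not tested.

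**Figure D1:**
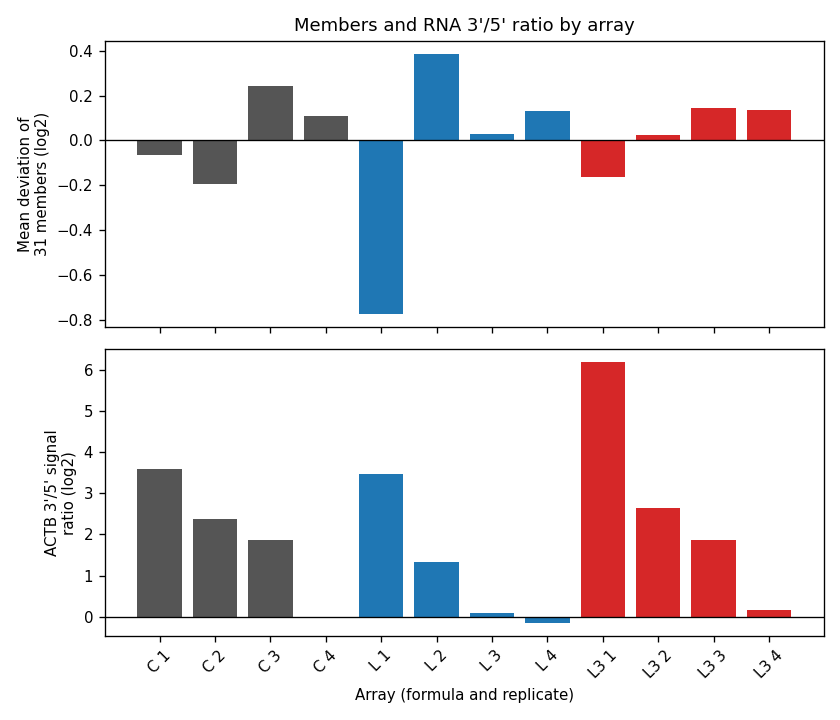
Upper panel, mean deviation of the 31 measured genes from their own means over 12 arrays (log2 units), for each array. Lower panel, log2 ratio of 3′ to 5′ ACTB signal on the same arrays. Bars are single arrays, grey for C, blue for L and red for L3. L replicate 1 lies at −0.78 in the upper panel, and the highest ACTB ratio, 6.18, belongs to L3 replicate 1.

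No gene of the module passed the adjusted threshold in any comparison of formulas. In L/C, 0 of the 31 genes had an unadjusted limma p under 0.05, against 2.42% of all 54613 probe sets. In L3/C, 0 of 31 did, against 4.26% of all probe sets. In L3/L, 1 of 31 did (MLYCD, higher in L3), against 5.4% of all probe sets, and in the test of any difference among the 3 formulas 0 of 31 did, against 3.67%. After Benjamini-Hochberg adjustment over all probe sets, limma called 0 genes of the module and 0.0% of all probe sets in each of L/C, L3/C and L3/L. With the unmoderated tests that the methods of the study name, the module had 1 gene at an unadjusted p under 0.05 in L/C, 1 in L3/C, 1 in L3/L and 1 in the test of any difference, and 0 after adjustment. Those tests called 3.31%, 3.72%, 4.45% and 3.89% of all probe sets. Complete separation of the 4 arrays of one formula from the 4 of another was seen for 0 of the 31 genes in each comparison, while 2.1% of all probe sets separated in L/C, 2.21% in L3/C and 2.66% in L3/L.

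The direction of the genes was mixed. In L/C 12 genes were higher and 19 lower, with a median log2 difference of −0.05 against −0.01 for all probe sets. In L3/C 15 were higher and 16 lower, with a median of −0.06 against 0.00. In L3/L 20 were higher and 11 lower, with a median of 0.09 against 0.01. These splits turned with a single array. Without L replicate 1, L/C had 18 higher and 13 lower with a median of 0.11, and L3/L had 11 higher and 20 lower with a median of −0.19.

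The intervals show how large a change the arrays could have missed. The 95% interval of the difference lay wholly within 2-fold either way for 9 of the 31 genes in each comparison, against 22.3% of all probe sets in L/C, 20.6% in L3/C and 19.6% in L3/L. The genes so bounded in all 3 comparisons were ACAD9, ACAT1, ETFA, HADHB, SLC22A5 and SLC25A20. For the remaining genes a change of 2-fold was not excluded by the interval in at least 1 comparison. The within-group SD of the log2 values ran from 0.30 for ACAT1 to 1.29 for ACADVL, with a median of 0.80 against 0.72 for all probe sets. The upper end rested on L replicate 1, without which the SD of ACADVL was 0.42, the genes ran from 0.27 for ACADSB to 1.11 for ETFB, and their median was 0.54. The median over all probe sets was not computed without that array, so 0.54 is not to be read against 0.72.

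**Figure D2:**
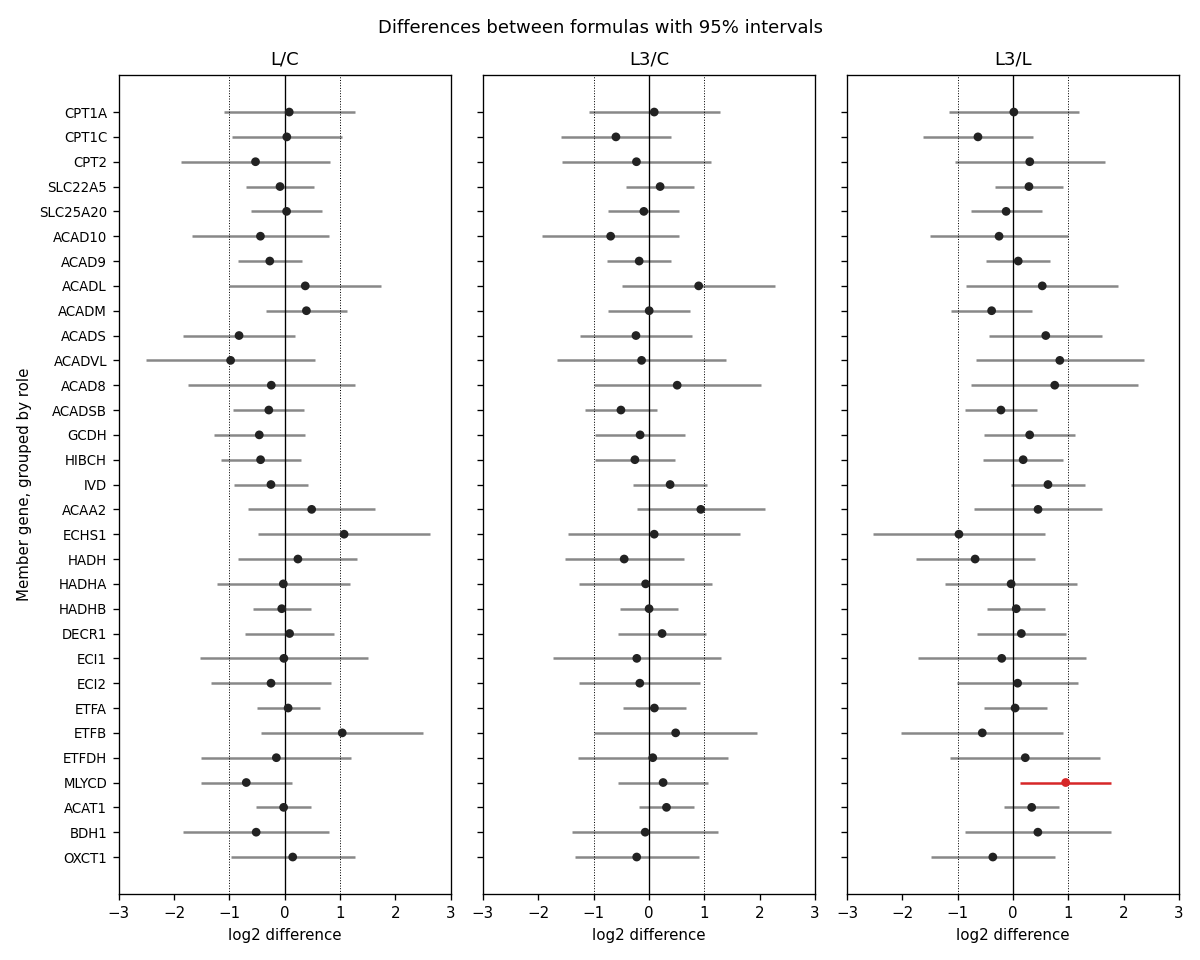
Log2 differences (points) with 95% intervals (bars) for the brightest probe set of each of the 31 measured genes, grouped by role, in L/C, L3/C and L3/L. Dotted lines mark 2-fold either way, and red marks an unadjusted limma p under 0.05. MLYCD in L3/L, at 0.95, is the one gene in red, and most intervals cross a dotted line.

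Entry of fatty acids was represented by 5 genes, of which 0 had an unadjusted limma p under 0.05 in any comparison. The interval of the difference lay within 2-fold either way for only 2 of the 5 in each comparison. A 2-fold change was thus not excluded for the others. The median log2 difference of the 5 genes was 0.03 for L/C and −0.09 for L3/C. CPT1A, the carnitine palmitoyltransferase of the outer membrane and the controlled step of entry, differed by 0.08 (SE 0.56) for L/C and 0.10 (SE 0.56) for L3/C. CPT1C, a brain isoform of the endoplasmic reticulum, had signals of 384 ± 182 under C, 377 ± 153 under L and 236 ± 63.2 under L3 (SD, n = 4 each), and a log2 difference of −0.59 (SE 0.47) for L3/C that kept its sign under all 27 alternative settings. The 2 carriers were among the steadiest genes of the module. SLC25A20, the inner membrane exchanger of carnitine and acylcarnitine, had signals of 430.3 ± 50.0 under C, 444 ± 62.6 under L and 425 ± 111 under L3, and SLC22A5, the plasma membrane carnitine transporter, had 473 ± 91.6, 459.8 ± 124 and 560.1 ± 115 (SD, n = 4 each).

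CPT2, which turns acylcarnitine back to acyl-CoA inside the mitochondrion, is 1 of 3 module genes that the study lists, and it had 2 probe sets. On the brighter one the C arrays read 10.7, 21.8, 110.3 and 109.9, the L arrays 27.3, 87.5, 10.0 and 13.9, and the L3 arrays 51.1, 17.6, 39.5 and 74.5. C was split into a low and a high pair, and all 4 L3 arrays lay within the range of C. The log2 difference was −0.53 (SE 0.64) for L/C and −0.22 (SE 0.64) for L3/C. On the probe set that the study lists the arrays read 69.9, 35.0, 35.7 and 32.5 in C, 70.4, 15.4, 35.0 and 45.3 in L, and 24.7, 37.5, 30.7 and 32.3 in L3, a difference of −0.05 for L/C and −0.34 for L3/C (SE 0.37). The groups overlapped on both probe sets, and 0 of these 4 differences passed the test. The study chose CPT2, ACADSB and ACAD10 on these same samples, so their values here are not independent evidence of a direction.

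The first step of each round is carried out by acyl-CoA dehydrogenases that differ in chain length. Of the 6 measured for straight chains, 0 passed the test in L/C, L3/C or L3/L, and the median was −0.35 for L/C and −0.15 for L3/C. ACADVL, which takes the longest chains at the inner membrane, had signals of 769.3, 443.4, 959.5 and 998.7 in C, 32.0, 1002.3, 706.0 and 795.2 in L, and 453.8, 855.0, 691.5 and 588.4 in L3. The L value of 32.0 is L replicate 1, and the log2 difference in L/C of −0.98 (SE 0.72) became 0.09 without that array. ACADM, the medium chain enzyme, differed by 0.39 (SE 0.35) for L/C and 0.01 for L3/C.

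ACADS, the short chain enzyme, read 142.5, 196.8, 206.5 and 84.8 in C, 109.4, 69.6, 43.9 and 89.6 in L, and 98.9, 92.1, 236.0 and 160.5 in L3. C and L overlapped through C replicate 4. The log2 difference in L/C was −0.83 (SE 0.48, unadjusted limma p = 0.105, exact permutation p = 0.0571), and it kept its sign under all 26 settings in which it was fitted. ACADL, the long chain enzyme, stood at 0.90 (SE 0.65) for L3/C, with 3 L3 arrays at 140.7 to 197.5, above every C array, and L3 replicate 4 at 12.9, below every C array. The C arrays were dim, at 21.9 to 85.5, and the other ACADL probe set gave −0.06 for L3/C. ACAD9, needed for assembly of respiratory complex I, differed by −0.27 (SE 0.27) for L/C and −0.17 for L3/C.

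ACAD10, a dehydrogenase family member also listed by the study, had 4 probe sets that did not share a sign in any comparison. The brightest read 262.7, 190.1, 174.6 and 129.2 in C, 85.1, 164.1, 104.1 and 182.6 in L, and 372.5, 29.9, 91.0 and 142.3 in L3. The L3 arrays held both the highest and the lowest value of all 12, and the log2 difference in L3/C was −0.69 (SE 0.59, exact permutation p = 0.371). The listed probe set read 171.7, 374.2, 138.0 and 35.9 in C, 26.1, 160.6, 107.7 and 28.8 in L, and 261.9, 57.0, 361.6 and 129.9 in L3. It gave −0.95 (SE 0.70) in L/C, 0.13 in L3/C and 1.08 in L3/L (exact permutation p = 0.2), so the 2 probe sets had opposite signs in L3/C and in L3/L.

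Another 5 enzymes, ACADSB, ACAD8, IVD, GCDH and HIBCH, act on acyl-CoAs from branched-chain amino acids, lysine and tryptophan. All 5 were lower in L/C, by 0.24 to 0.46 on the log2 scale, but 0 of 5 passed the test. Without L replicate 1 ACAD8 stood at 0.61 and IVD at 0.01, and ACADSB, GCDH and HIBCH at −0.13, −0.17 and −0.22. In L3/C 2 were higher and 3 lower. IVD, which acts on the leucine product isovaleryl-CoA, had its largest difference in L3/L, at 0.63 (SE 0.31, exact permutation p = 0.114), and at 0.38 without L replicate 1. Its 4 probe sets went both ways there, the other 3 giving 0.26, 0.08 and −1.04, and none of them passed the test.

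ACADSB, the short and branched chain dehydrogenase of isoleucine breakdown, is the third listed gene, and its 2 probe sets disagreed in L3/C. The brighter one read 382.2, 554.9, 477.6 and 523.3 in C, 322.5, 502.8, 354.6 and 467.5 in L, and 298.5, 323.6, 455.7 and 338.1 in L3. On 3 of the 4 L3 arrays the value lay below every C array, and the log2 difference in L3/C was −0.50 (SE 0.30, unadjusted limma p = 0.116, exact permutation p = 0.0571). The probe set that the study lists read 301.5, 293.0, 420.9 and 391.3 in C, 122.8, 245.8, 342.2 and 290.5 in L, and 546.9, 1130.2, 470.5 and 252.8 in L3. Here 3 of the 4 L3 arrays lay above every C array, and the log2 difference was 0.65 (SE 0.45, unadjusted limma p = 0.173) in L3/C and 1.13 in L3/L (unadjusted limma p = 0.024, adjusted p = 0.891, exact permutation p = 0.114). Without L3 replicate 2, which read 1130.2, the L3/L difference was 0.74, and without L replicate 1 it was 0.78, in both cases with an unadjusted limma p above 0.05. The log2 value of the listed probe set minus that of the brighter one was 0.98 and 2.00 in L3 replicates 1 and 2, 0.06 and −0.36 in L3 replicates 3 and 4, and −1.29 to −0.05 in the 8 arrays of C and L. The listed probe set therefore stood highest over the brighter one on 2 of the 4 L3 arrays.

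**Figure D3:**
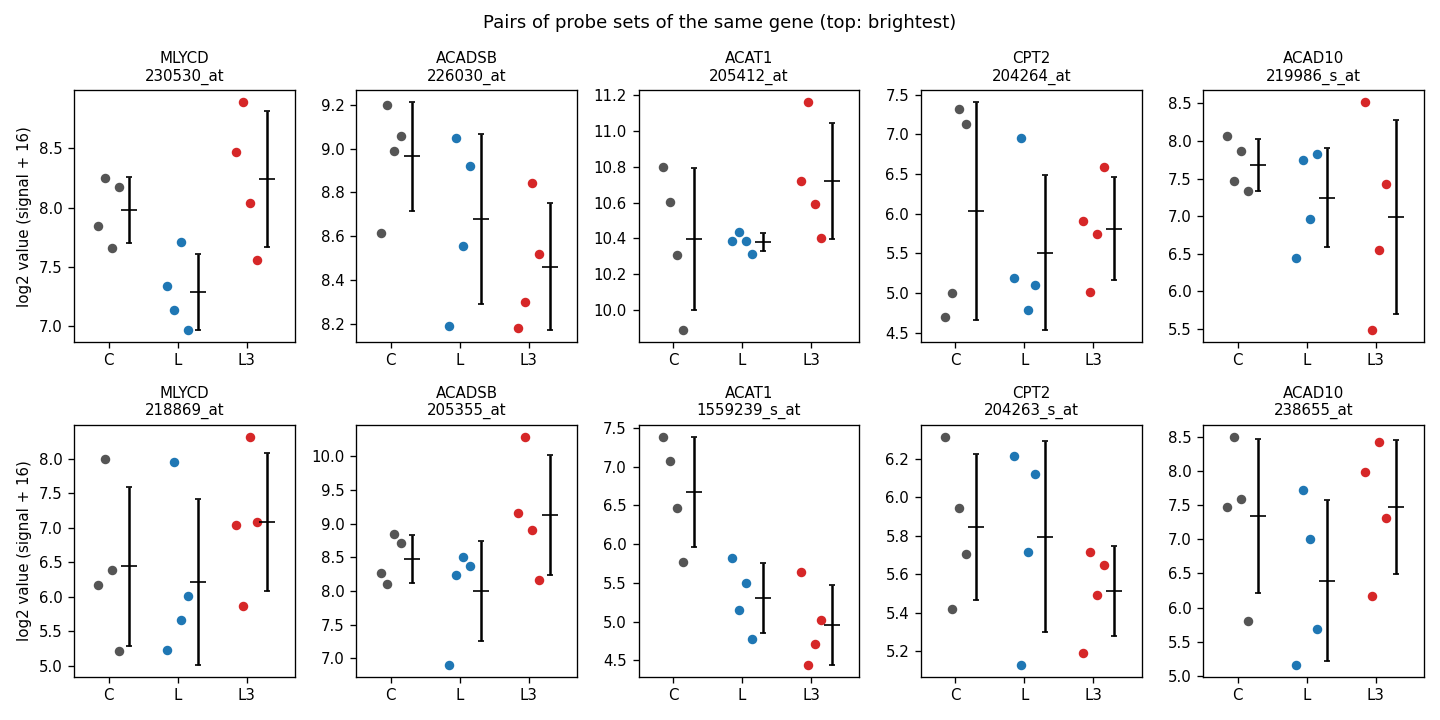
Log2(signal + 16) after quantile normalization for 2 probe sets of each of MLYCD, ACADSB, ACAT1, CPT2 and ACAD10, with the brightest above. Points are single arrays of C (grey), L (blue) and L3 (red), and bars are the group mean ± SD (n = 4), with an axis of its own for each panel. For ACADSB the L3 points lie mostly below C in the upper panel and mostly above C in the lower one.

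The later steps of the spiral, hydration, the second dehydrogenation and thiolysis, were covered by 5 genes, of which 0 passed the test. Their median was 0.24 for L/C and 0.00 for L3/C. HADHB, the thiolase subunit of the trifunctional protein, was steady at 1322.5 ± 232 under C, 1268 ± 228 under L and 1190.8 ± 155 under L3 (SD, n = 4 each), with log2 differences of −0.05 and 0.00 (SE 0.25). HADHA, the subunit that holds the hydratase and long chain hydroxyacyl dehydrogenase and whose gene neighbours HADHB in the RefSeq annotation of the olive baboon, read 106.3 in L replicate 1 and 730.2 to 844.0 in the other L arrays. Its log2 difference in L/C was −0.02 (SE 0.57) with that array and 0.71 without it. The within-group SDs of the 2 subunits were 0.97 for HADHA and 0.32 for HADHB, and 0.54 and 0.27 without L replicate 1.

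ECHS1, the short chain enoyl-CoA hydratase, had the widest positive difference of the module in L/C. It read 70.1, 249.1, 36.6 and 281.1 in C, 81.6, 350.7, 421.8 and 465.8 in L, and 31.2, 300.3, 145.2 and 262.4 in L3. On 3 of the 4 L arrays the value lay above every C array, and L replicate 1 lay among the low ones. The log2 difference in L/C was 1.07 (SE 0.74, exact permutation p = 0.171), and without L replicate 1 it was 1.68 with an unadjusted limma p of 0.029. In L3/L it was −0.98 (exact permutation p = 0.314), and −1.59 without that array, with an unadjusted limma p of 0.038. The fit without L replicate 1 kept C replicate 1 at 70.1 and L3 replicate 1 at 31.2, which were low too. ACAA2, the mitochondrial thiolase for medium chains, had the widest positive difference in L3/C at 0.94 (SE 0.54, exact permutation p = 0.229), while its other 2 probe sets gave −0.52 and −0.32. HADH, the short chain hydroxyacyl dehydrogenase, differed by −0.45 (SE 0.51) in L3/C, with L3 replicate 1 at 54.8 and the other L3 arrays at 300.6 to 439.5.

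The 3 auxiliary enzymes that prepare unsaturated chains, among which DHA and ARA would fall, did not pass the test in any comparison. DECR1, the 2,4-dienoyl-CoA reductase, had signals of 528 ± 184 under C, 505 ± 77.7 under L and 583 ± 215 under L3 (SD, n = 4 each), with log2 differences of 0.09 and 0.24 (SE 0.38) in L/C and L3/C. ECI1 and ECI2, the isomerases that move double bonds, differed by −0.01 and −0.25 in L/C and by −0.22 and −0.16 in L3/C. The SEs were 0.72 for ECI1 and 0.52 for ECI2.

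Electron transfer from the dehydrogenases also showed no call. ETFA, a subunit of electron transfer flavoprotein, held at 699.3 ± 167 under C, 754 ± 121 under L and 706 ± 166 under L3 (SD, n = 4 each), and its 95% interval in L3/C ran from −0.47 to 0.67. ETFB, its partner subunit, differed by 1.04 (SE 0.69) in L/C with C arrays at 27.0, 114.1, 363.4 and 22.7. ETFDH, which hands the electrons to ubiquinone, differed by −0.15 (SE 0.64) in L/C, and its other probe set gave 0.99.

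MLYCD was the one gene of the module with an unadjusted p under 0.05 on its brightest probe set. It encodes malonyl-CoA decarboxylase, which removes the malonyl-CoA that inhibits CPT1. On that probe set it read 224.2, 320.9, 146.9 and 252.0 in C, 177.3, 101.6, 182.0 and 91.2 in L, and 360.5, 460.0, 285.4 and 159.1 in L3. L was the low group, and 3 of the 4 L3 arrays lay above every L array, with L3 replicate 4 inside the L range. Means were 236 ± 72.0 under C, 138 ± 48.3 under L and 316 ± 127 under L3 (SD, n = 4 each). The log2 difference in L3/L was 0.95 (SE 0.39, 1.94-fold), with an unadjusted limma p of 0.025, an adjusted p of 0.891 and an exact permutation p of 0.0571. In L/C it was −0.69 (unadjusted limma p = 0.091, exact permutation p = 0.0571), and in L3/C 0.26 (unadjusted limma p = 0.515, exact permutation p = 0.457). The group means thus did not follow the DHA content in order, since the mean of L lay below those of C and L3. The C and L arrays overlapped and neither L/C nor L3/C had a call, so the order of the 3 formulas is not established.

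The L3/L difference of MLYCD ran from 0.74 to 1.17 over 27 alternative settings and had an unadjusted p under 0.05 in 19 of them. It lost that call without L replicate 2 (0.89), L replicate 4 (0.84), L3 replicate 1 (0.88) or L3 replicate 2 (0.74), with limma p-values of 0.052 to 0.088. With females alone it was 0.89, with a limma p of 0.079, and without the 3 arrays of the highest ACTB ratios it was 0.91, with a limma p of 0.076. With the ACTB ratio or the spiked hybridization controls as a covariate it was 0.85 and 0.77, and the limma p was above 0.05 for both. The dimmer probe set gave 0.86 in L3/L (SE 0.72, exact permutation p = 0.314), the same sign, with arrays from 18.3 to 338.0.

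Ketone body use was measured through 3 genes, and 0 of them passed the test on the brightest probe set. OXCT1, which activates acetoacetate with the CoA of succinyl-CoA and is the committed step of ketone use, read 464.5, 287.4, 597.4 and 299.8 in C, 403.4, 552.2, 352.3 and 460.7 in L, and 590.6, 571.3, 75.3 and 422.3 in L3. L3 replicate 3 was far below the rest, the other arrays overlapped, and the log2 differences were 0.14 for L/C and −0.22 for L3/C (SE 0.53). BDH1, which interconverts hydroxybutyrate and acetoacetate, read 161.1, 164.8, 49.2 and 208.9 in C, 16.8, 157.4, 172.4 and 74.3 in L, and 89.9, 136.4, 181.3 and 165.4 in L3. The 3 groups overlapped, with log2 differences of −0.52 for L/C and −0.07 for L3/C (SE 0.62).

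ACAT1, the acetoacetyl-CoA thiolase that yields acetyl-CoA from ketone bodies and also closes isoleucine breakdown, had the smallest within-group SD of the module over the 12 arrays on its brightest probe set. That probe set read 1711.8, 1243.8, 1579.4 and 1022.3 in C, 1001.9, 1728.0, 1409.3 and 1470.3 in L, and 1450.1, 2026.8, 1238.7 and 1460.0 in L3. The groups overlapped, and the log2 difference was −0.02 for L/C and 0.32 (SE 0.24, 95% interval −0.18 to 0.82) for L3/C.

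A dim ACAT1 probe set, singled out after its values were seen, gave another picture. It read 160.5, 139.9, 56.9 and 34.6 in C, 50.7, 15.7, 27.2 and 7.8 in L, and 40.0, 7.1, 11.4 and 14.7 in L3. The log2 difference was −1.36 (SE 0.43, exact permutation p = 0.0571, unadjusted limma p = 0.0056) for L/C and −1.72 (unadjusted limma p = 0.00096, adjusted p = 0.999, exact permutation p = 0.0286) for L3/C, and both comparisons share the C arrays. After normalization all 4 L3 arrays lay below all 4 C arrays, by 5.64 against 5.76 at the closest, but in the deposited signals L3 replicate 1 at 40.0 was above C replicate 4 at 34.6. Both differences kept their sign and an unadjusted p under 0.05 in the 25 settings in which they were fitted. The remaining ACAT1 probe set gave −0.74 and −0.19 with no call. ACAT1 therefore had 1 probe set that was lower in both supplemented groups at the unadjusted threshold and a far steadier one that was not.

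**Figure D4:**
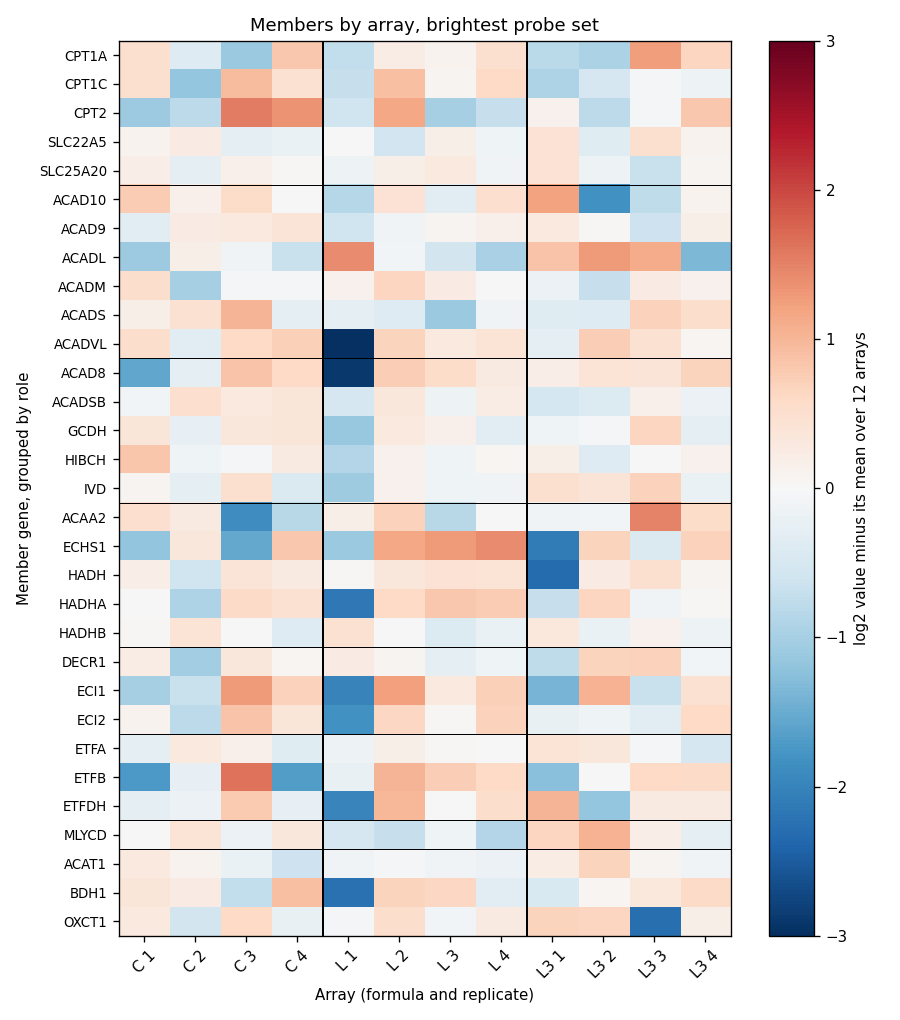
Log2 value of each of the 31 measured genes (rows, grouped by role) on each of the 12 arrays (columns), as the deviation from the gene's mean over all arrays. Red is above and blue below that mean. The column of L replicate 1 holds the lowest value for 10 of the 31 genes, and no row divides the formulas cleanly.

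Disagreement between probe sets of a gene was common. Over the 17 genes with several probe sets, all probe sets of the gene shared a sign for 7 genes in L/C, 8 in L3/C and 4 in L3/L. Over all 58 probe sets of the module, 1 had an unadjusted limma p under 0.05 for L/C and 1 for L3/C, both the dim ACAT1 probe set and lower, and 2 in L3/L, the bright MLYCD and the listed ACADSB probe sets, both higher. These are 1.72%, 1.72% and 3.45% of the 58, none above the 2.42%, 4.26% and 5.4% of all probe sets given above.

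Genes around the module were described by lists of regulators, ketone synthesis and transport, acyl-CoA side enzymes, branched-chain catabolism and mitochondrial content. The counts in L3/C are to be read against all probe sets, of which 4.26% were called and 49.9% were higher. Of 15 measured regulators of fatty acid oxidation, 0 had an unadjusted limma p under 0.05 in L/C, L3/C or L3/L, and the median in L3/C was −0.08. The nearest in L3/C were PRKAA2, a catalytic subunit of the energy sensor AMPK, at 1.15 (SE 0.55, exact permutation p = 0.2), and PDK4, a kinase that holds back pyruvate oxidation, at 1.08 (SE 0.55, exact permutation p = 0.0571), followed by SIRT3, a mitochondrial deacetylase, at 0.38. PDK4 had signals of 122 ± 68.5 under C and 267.8 ± 52.3 under L3 (SD, n = 4 each).

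Of 5 measured genes of ketone synthesis, transport and cytosolic use, 1 passed the unadjusted threshold in L3/C, against 4.26% of all probe sets, and 4 of 5 were lower. BDH2, a cytosolic hydroxybutyrate dehydrogenase by name, was lower in L3 than in C, at −1.39 on the log2 scale (SE 0.55, unadjusted limma p = 0.023, adjusted p = 0.999, exact permutation p = 0.0571), with signals of 252 ± 81.4 under C and 107 ± 72.6 under L3 (SD, n = 4 each). AACS, which activates acetoacetate in the cytosol for lipid synthesis, stood at 1.10 and SLC16A7, a monocarboxylate transporter, at −0.36, neither with a call.

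Among 14 acyl-CoA side enzymes, 1 was called in L3/C, against the same 4.26%, and 11 of 14 were lower, with a median of −0.16. ACOT13, an acyl-CoA thioesterase, was lower with a difference of −0.66 (SE 0.31, exact permutation p = 0.0857, unadjusted limma p = 0.046, adjusted p = 0.999). ACOT9, another thioesterase, stood at −0.92 and CRAT, carnitine acetyltransferase, at 0.58, neither with a call. Among 15 genes of branched-chain amino acid catabolism, 1 was called in L3/C, again against 4.26%, and 11 were lower, with a median of −0.16. MCCC1, a subunit of the leucine pathway enzyme methylcrotonyl-CoA carboxylase, was higher by 1.38 (SE 0.52, unadjusted limma p = 0.018, adjusted p = 0.999, exact permutation p = 0.0286), from 75.1 ± 39.9 in C to 230.1 ± 58.4 in L3 (SD, n = 4 each). PCCB, of propionyl-CoA carboxylase, stood at −0.71 and BCAT2, the mitochondrial branched-chain aminotransferase, at −1.08, neither with a call.

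Mitochondrial content, by 19 measured genes of the outer membrane, respiratory chain and matrix, had a median of −0.05 in L/C, −0.01 in L3/C and 0.01 in L3/L, and 0 of them were called in L3/C. CYCS, cytochrome c, was higher in L/C by 0.46 (exact permutation p = 0.0286, unadjusted limma p = 0.034) and HSPD1, the matrix chaperonin, in L3/L by 0.51 (unadjusted limma p = 0.018). That was 1 of 19 genes in each of these 2 comparisons, against 2.42% and 5.4% of all probe sets. In L3/C the smallest p-values belonged to HSPD1 at 0.40, CYCS at 0.31 and ATP5A1, a subunit of ATP synthase, at −0.27, none with a call.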

How the data were processed

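The authors deposited MAS5 signals from GCOS for 54675 probe sets on each of 12 arrays, 1 array per animal. The signal is an intensity on a linear scale, as deposited, and each array had been scaled to a trimmed mean of 250.0 (2% of values trimmed at either end). The methods of the study describe RMA values, which are not these. No detection calls were used here. Probe sets were named by the platform annotation, in which 41091 carried 1 symbol, 1801 several and 11721 none.

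From the intensities, the 62 control probe sets were dropped, 16 was added, log2 was taken and arrays were quantile normalized. All log2 differences are on this scale, which understates the change of dim probe sets, and signals printed per array are the deposited ones. Limma 3.58.1 (R 4.3.3) fitted 3 group means with a variance trend (9 residual degrees of freedom), with Benjamini-Hochberg adjustment over 54613 probe sets. Exact permutation tests were two-sided. Scripts were tested on simulated data. The number of arrays limits the precision, with a median SE of 0.51 for a log2 difference over all probe sets. Groups, replicate numbers, sex and age came from the sample labels.

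Members and gene lists were chosen with earlier results of these data known. All members were named by their brightest probe set, with values per array for those with an unadjusted p under 0.05, those the study lists and the ketone body enzymes, and in each further list up to 3 genes with the smallest p in L3/C. Some other members are given per array where 1 array decided a value. Members were found by symbol in the RefSeq annotation of the olive baboon (Panubis1.0) for 32 of 33. The alternatives tried were scaling, pseudocount, a filter on dim probe sets, variance model, the unmoderated tests of the study's methods, the arrays in the fit, sex, age, a replicate block, the mean over probe sets, RNA quality, spiked controls and each array left out.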

Additional observations from a re-analysis of the deposited data

Results flagged for a closer look

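In 8 of the 93 groups of 4 arrays that the 31 genes and 3 formulas make, 1 array lay far from the other 3 of its formula, by Dixon's criterion on the log2 values. Chance flags about 1 in 20 groups. L replicate 1 accounted for 4 of them, all low: ACADVL at a signal of 32.0 (other L arrays 706.0 to 1002.3), ACAD8 at 12.8 (178.5 to 252.4), HADHA at 106.3 (730.2 to 844.0) and ECHS1 at 81.6 (350.7 to 465.8). In L3, ACADL was low in replicate 4 at 12.9 (140.7 to 197.5) and HADH was low in replicate 1 at 54.8 (300.6 to 439.5). In C, GCDH was low in replicate 2 at 253.8 (297.3 to 349.7), and ETFDH was high in replicate 3 at 182.6 (92.2 to 129.6). These 2 flags rested on the normalized log2 values, and the gaps were less plain in the deposited signals printed here.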

How the results depend on the processing

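Under 27 alternative settings (26 for the test of any difference) 0 genes of the module passed an adjusted p under 0.05. At an unadjusted p under 0.05, the count in L/C was 1 with the unmoderated tests of the study's methods (MLYCD), 1 without the 3 arrays whose ACTB ratio was above 3 (ECHS1), an alternative chosen after seeing the data, and 2 with the mean over probe sets (ACADS and ACAT1). ACADS has 1 probe set, so averaging left its values as they were and changed only the moderated variance of its test. The count in L3/C was 1 with the unmoderated tests (ACADSB), with a sex covariate (ACAA2) and without those 3 arrays (ACAA2). The count in L3/L was 0 with females only, with an ACTB or spike-in covariate and without those 3 arrays, and 2 with an age covariate (ACAD8 and MLYCD). The test of any difference gave 1 (MLYCD) with no variance trend and with the unmoderated tests. Leaving out 1 array gave counts of 0 to 1 in L/C, 0 to 1 in L3/C, 0 to 2 in L3/L and 0 to 1 for any difference. It gave medians of −0.24 to 0.11, −0.15 to 0.05 and −0.19 to 0.19, and the other settings −0.28 to 0.12, −0.22 to 0.15 and −0.11 to 0.24, so no median kept its sign throughout. Of 31 genes, 9 kept their sign in every setting in L/C, 7 in L3/C and 10 in L3/L. The causes were not tested.

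With a replicate block the count was 1 in L/C (ECHS1), 0 in L3/C and 2 in L3/L (IVD and MLYCD), against 3.11%, 5.19% and 7.01% of all probe sets. Arrays of the same number correlated at −0.09 to 0.33 in their deviations from the group means, above 0.1 for 6 of 12 pairs, which were those of numbers 1 and 4, and 6 of 12 arrays correlated best with one of their own number. Spiked control signals were lowest in replicate 4 of each formula, and the ACTB ratio followed the numbers 1 and 4 as given above. The labels used here do not say what the numbers mark. The main fit treated the arrays as unpaired because not every pair passed 0.1. That rule does not remove the shared pattern of numbers 1 and 4. The replicate block takes it into account, and the ACTB and spike-in covariates may take up part of it. For MLYCD in L3/L the limma p was 0.032 with the block, 0.055 with the ACTB covariate and 0.081 with the spike-in covariate.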
